A study of Mus musculus with 23 samples.

Results

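Glutathione S-transferases (GSTs) were examined in mouse liver through 10 genes, namely Gsta2, Gsta3 and Gsta4 of the alpha class, Gstm1, Gstm2, Gstm3, Gstm4 and Gstm6 of the mu class, and Gstt1 and Gstt3 of the theta class. They are 10 of the 18193 genes that the array's annotation pairs with a probe set of their own. Every probe set paired with 1 of these genes alone was taken, which gave 15 probe sets, and each gene was represented by its probe set with the highest mean over the 23 arrays. Male FVB/N-SULT1A1/2 mice, hemizygous per the labels and carrying human sulfotransferase genes, were given 1-methoxy-3-indolylmethyl alcohol (1-MIM-OH) in 3 oral doses a week, each of 26 mg/kg. Control mice of the same strain received the vehicle, glyceryl trioctanoate. Livers were collected 24 h after the last dose, either after 10 doses over 21 d (5 treated, 6 vehicle) or after 40 doses over 90 d (6 treated, 6 vehicle). All 4 groups carry the transgenes, and the labels give an age of 5 weeks for every animal at both durations. The promoter that drives the transgenes is not given in the sources used here. 1 further treated 21 d array, left out by the submitters for hybridisation artefacts, was not analysed here.

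GSTs join the thiol of glutathione to electrophilic compounds, which makes them more soluble and less reactive towards DNA and protein. In liver they form a large share of the soluble detoxification enzymes, and many alpha and mu class genes are induced through NRF2, the transcription factor that responds to electrophiles and binds antioxidant response elements. Sulfotransferases can turn benzylic-type alcohols such as 1-MIM-OH into reactive sulfate esters, and theta class enzymes of rat and human are known to conjugate some arylmethyl sulfates. The comparisons of treated with vehicle livers ask whether transcripts of this conjugation system differed after 10 or 40 doses.

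Promoter windows of 4 members are shown because the results below describe these genes most fully. Each window holds 250 bases before and 50 bases after the annotated start, from RefSeq on GRCm38.p6, written 5′ to 3′ along the gene. Capitals mark the core of an antioxidant response element, spelled TGACNNNGC and searched on both strands.
Gsta2, chr9:78347096-78347395, - strand: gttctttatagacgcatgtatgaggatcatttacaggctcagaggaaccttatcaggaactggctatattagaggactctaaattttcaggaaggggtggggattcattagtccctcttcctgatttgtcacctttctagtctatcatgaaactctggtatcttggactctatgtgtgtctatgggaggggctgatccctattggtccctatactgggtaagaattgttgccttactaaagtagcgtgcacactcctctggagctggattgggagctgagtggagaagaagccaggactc
Gsta3, chr1:21240335-21240634, + strand: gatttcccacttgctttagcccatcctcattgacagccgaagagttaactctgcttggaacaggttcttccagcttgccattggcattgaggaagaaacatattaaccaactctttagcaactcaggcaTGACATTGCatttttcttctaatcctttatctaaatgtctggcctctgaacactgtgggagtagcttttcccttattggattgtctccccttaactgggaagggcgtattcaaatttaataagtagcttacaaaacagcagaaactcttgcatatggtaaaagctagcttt
Gstm3, chr3:107969125-107969424, - strand: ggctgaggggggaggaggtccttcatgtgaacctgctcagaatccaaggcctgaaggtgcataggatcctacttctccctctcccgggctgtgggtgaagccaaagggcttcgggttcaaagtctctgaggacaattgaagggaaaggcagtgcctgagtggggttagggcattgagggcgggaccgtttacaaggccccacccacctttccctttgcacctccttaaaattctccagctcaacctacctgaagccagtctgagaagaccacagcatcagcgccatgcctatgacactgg
Gstm4, chr3:108044810-108045109, - strand: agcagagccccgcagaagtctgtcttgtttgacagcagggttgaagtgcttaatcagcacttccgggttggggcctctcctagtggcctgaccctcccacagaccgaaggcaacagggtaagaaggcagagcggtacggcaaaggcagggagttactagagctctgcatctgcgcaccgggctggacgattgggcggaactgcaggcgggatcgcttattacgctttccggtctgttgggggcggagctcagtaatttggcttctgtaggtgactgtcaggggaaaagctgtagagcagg
Windows were found for 9 of the 10 members and none for Gsta4. The element core occurred in Gsta3 alone among these 9 genes, in 1 of their 14 windows, starting 121 bases before the annotated start. Of all 32851 windows of this length, 12.4% held it. Elements farther from the start lie outside these windows. The mu class members lie beside each other on chromosome 3, Gsta2 and Gsta4 lie on chromosome 9, Gsta3 lies on chromosome 1, and the theta members lie on chromosome 10.

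The values are log2 signals, and the arrays were near equal in their medians, from 5.53 to 5.61. Within groups, arrays correlated with r between 0.984 and 0.997 over all probe sets. Hepatocyte markers were high in every liver, with a mean log2 signal over 8 genes between 13.90 and 14.13. Array controls read Gapdh at opposite ends, and a larger excess of the 3′ over the 5′ signal (the Gapdh gap, log2) goes with shortened RNA. At 21 d the Gapdh gap averaged 1.00 ± 0.51 (SD, n = 5) after treatment against 0.33 ± 0.13 (SD, n = 6) after vehicle (exact permutation p = 0.026, 2-sided), and 0.53 ± 0.40 against 0.50 ± 0.15 at 90 d (n = 6 each, exact permutation p = 0.909). It exceeded 0.9 on 5 arrays, namely those of all treated 21 d livers but replicate 2, and that of treated 90 d replicate 6. The beta-actin control differed in the same direction at 21 d, by 0.58. In RNA from whole liver, fewer cells of a type and less RNA per cell cannot be told apart.

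Some probe sets may read more than 1 member of the family, which was not tested here because probe sequences were not used. Of the 15 probe sets, 10 are of the plain type, 2 carry the suffix for probes that read several transcripts of 1 gene (_a), 1 carries the suffix for probes common to transcripts of different genes (_s) and 2 the suffix for probes that may cross-hybridise (_x). The representative probe sets of Gstm1 (1416416_x_at) and Gstm3 (1427474_s_at) are of the last types, so their signals may include other mu class transcripts. A further probe set, 1421041_s_at, is paired with 3 genes at once (Gsta1, Gsta2 and Gm3776) and represents none of them. Gsta3 and Gstm3 have 2 probe sets each, Gstm1 has 4, and the other 7 members have 1.

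No member passed in any comparison at a limma adjusted p under 0.05 over the 45037 probe sets. At 21 d, 0 of 10 members passed, where 0.957% of all probe sets did, and at 90 d 0 of 10 passed against 0.502%. At an unadjusted p under 0.05 there were 4 members at 21 d (Gsta2, Gstm3 and Gstm4 higher, Gsta3 lower) beside 15.8% of all probe sets, 8.2% higher and 7.58% lower, and 5 at 90 d (Gsta2, Gsta4, Gstm2, Gstm3 and Gstm4, all higher) beside 10.2%, or 6.06% higher. The median log2 fold change over the members was 0.08 at 21 d, with a range from -0.44 to 0.56, and 0.27 at 90 d, with a range from -0.14 to 0.67. Over all probe sets the medians were -0.01 and 0.01. The shares of all probe sets given here and below include dim probe sets. In a fit of the 19345 probe sets with a mean of at least 6, 813 passed at 21 d, Gstm4 among them, and 254 at 90 d. An unadjusted p under 0.05 was reached there by 4392 at 21 d and 2775 at 90 d. Treated and vehicle livers were fully apart in 1 member at 21 d, Gstm4 (2.13% of all probe sets were apart in that comparison), and in 0 at 90 d (1.01%).

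**Figure D1:**
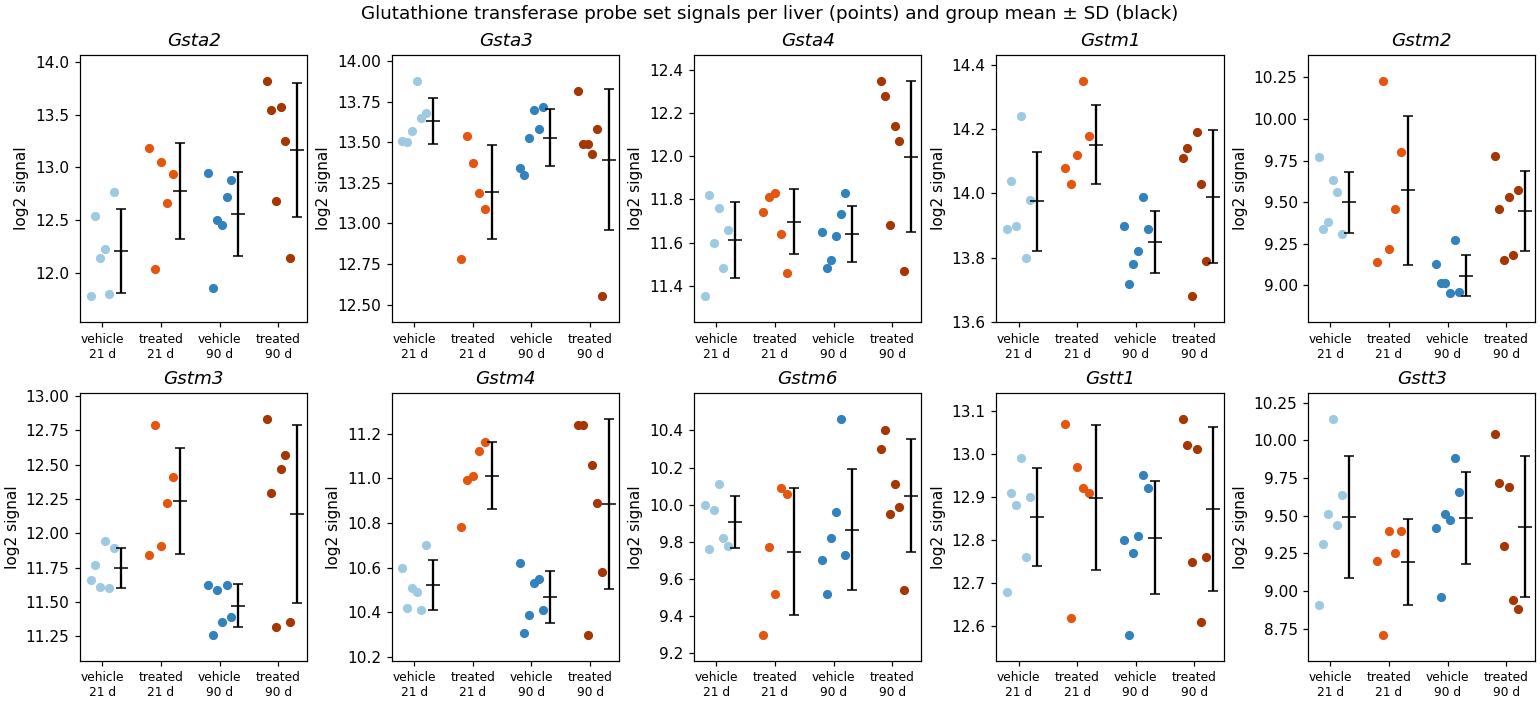
Log2 signal of the representative probe set of each of the 10 genes (vertical axis) in the 4 groups, with 1 point per liver in replicate order and the group mean ± SD in black; each panel has its own scale. Gstm4 is the member whose treated 21 d livers (10.78 to 11.16) lie above all vehicle 21 d livers (up to 10.70), and the SD of the treated 90 d livers runs from 0.19 in Gstt1 to 0.65 in Gstm3.

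Gstm4, a mu class transferase, had the lowest adjusted p of the 10 members at both durations. Its log2 signals in vehicle 21 d livers ran from 10.41 to 10.70 with a median of 10.50, and the treated 21 d livers had 10.78, 10.99, 11.01, 11.12 and 11.16. Every treated liver thus lay above every vehicle liver at 21 d. The log2 fold change was 0.49 ± 0.13 (SE, 95% interval 0.23 to 0.75), a 1.40-fold higher mean that did not pass (limma adjusted p = 0.0584). At 90 d the vehicle livers ran from 10.31 to 10.62, and the treated livers had 11.24, 11.24, 10.30, 11.06, 10.89 and 10.58 in replicates 1 to 6. 4 treated livers lay above the vehicle range, replicate 6 lay inside it and replicate 3 just below it. The mean was 1.33-fold higher (0.42 ± 0.12 SE, adjusted p = 0.151). Without treated 90 d replicate 3 it was 0.53 and passed (adjusted p = 0.00944). In the other 22 fits that left out 1 array the 90 d value did not pass (highest adjusted p = 0.348). In order of mean signal the groups were treated 21 d, treated 90 d, vehicle 21 d and vehicle 90 d, and neither the treated pair (-0.13 ± 0.13 SE) nor the vehicle pair (-0.05 ± 0.12 SE) differed past the threshold. The 21 d value was 0.50 in a fit that held the Gapdh gap as a covariate (adjusted p = 0.299) and 0.47 without the 5 arrays over 0.9 (adjusted p = 0.424), which leaves 1 treated array. It passed with only the 2 groups compared in the fit (adjusted p = 0.0293), with array weights (0.0408) and among probe sets with a mean of at least 6 (0.0356). Of the 23 fits that left out 1 array it passed in 4. These left out replicate 2 of the treated 21 d group (0.0389), or replicate 1, 3 or 6 of the treated 90 d group (0.0427, 0.0217 and 0.0399). In the other 19 it did not pass (highest adjusted p = 0.143).

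Gstm3, a mu class gene known in mouse as an NRF2 target, had higher means in treated livers at both durations. In vehicle livers its log2 signal ran from 11.60 to 11.94 at 21 d and from 11.26 to 11.62 at 90 d. Treated livers had 11.84, 12.79, 11.91, 12.22 and 12.41 at 21 d (replicates 1 to 5), and 3 of the 5 exceeded the vehicle range. At 90 d treated replicates 1 to 6 had 12.83, 12.29, 11.32, 12.47, 12.57 and 11.35, so 4 livers lay above the vehicle range and 2 lay inside it. The log2 fold changes were 0.49 ± 0.22 (SE, limma adjusted p = 0.269) at 21 d and 0.67 ± 0.21 (SE, adjusted p = 0.191) at 90 d. The second probe set, 1427473_at, is not of the shared type and was dimmer. It had 0.33 ± 0.26 (SE) at 21 d, where replicate 2 at 9.52 stood above the other treated livers (7.88 to 8.31), and 0.84 ± 0.25 (SE, adjusted p = 0.16) at 90 d. The 90 d difference of Gstm3 passed without treated 90 d replicate 3 (0.83, adjusted p = 0.0385) and without treated 90 d replicate 6 (0.82, adjusted p = 0.0395). It did not pass in the other 21 fits that left out 1 array (highest adjusted p = 0.377).

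Gstm1, the main mu class transferase of mouse liver, differed little between groups. The 4 groups overlapped, with signals from 13.80 to 14.24 in vehicle and from 14.03 to 14.35 in treated livers at 21 d, and from 13.72 to 13.99 and 13.68 to 14.19 at 90 d. Its log2 fold changes were 0.18 ± 0.09 (SE) at 21 d and 0.14 ± 0.09 (SE) at 90 d, and the 95% intervals ended at 0.37 and 0.32. The 3 other probe sets of Gstm1 gave values between 0.10 and 0.18 at 21 d and between -0.08 and 0.18 at 90 d, the negative one being 1425626_at. A probe set of the plain type, 1448330_at, gave 0.18 ± 0.09 (SE) at both durations, with 4 treated livers above the vehicle range at each.

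Gstm2 and Gstm6 are further mu class transferases. Gstm2 had 9.14, 10.23, 9.22, 9.46 and 9.80 in treated 21 d livers, on both sides of the vehicle range of 9.31 to 9.77. In treated 90 d livers it ran from 9.15 to 9.78, and 4 of the 6 exceeded the vehicle range of 8.95 to 9.27 (log2 fold change 0.39 ± 0.14 SE, limma adjusted p = 0.309). The vehicle livers themselves were apart in Gstm2, all 6 at 90 d lying below all 6 at 21 d (-0.44 ± 0.14 SE, unadjusted p = 0.00504, adjusted p = 0.739). The 90 d difference thus stood against a lower vehicle level, and the treated means were 9.57 at 21 d and 9.45 at 90 d. The 21 d value of Gstm2, 0.07 ± 0.15 (SE), was -0.093 without treated 21 d replicate 2. Gstm6 overlapped in every comparison, with log2 fold changes of -0.16 ± 0.16 (SE) at 21 d and 0.18 ± 0.15 (SE) at 90 d.

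**Figure D2:**
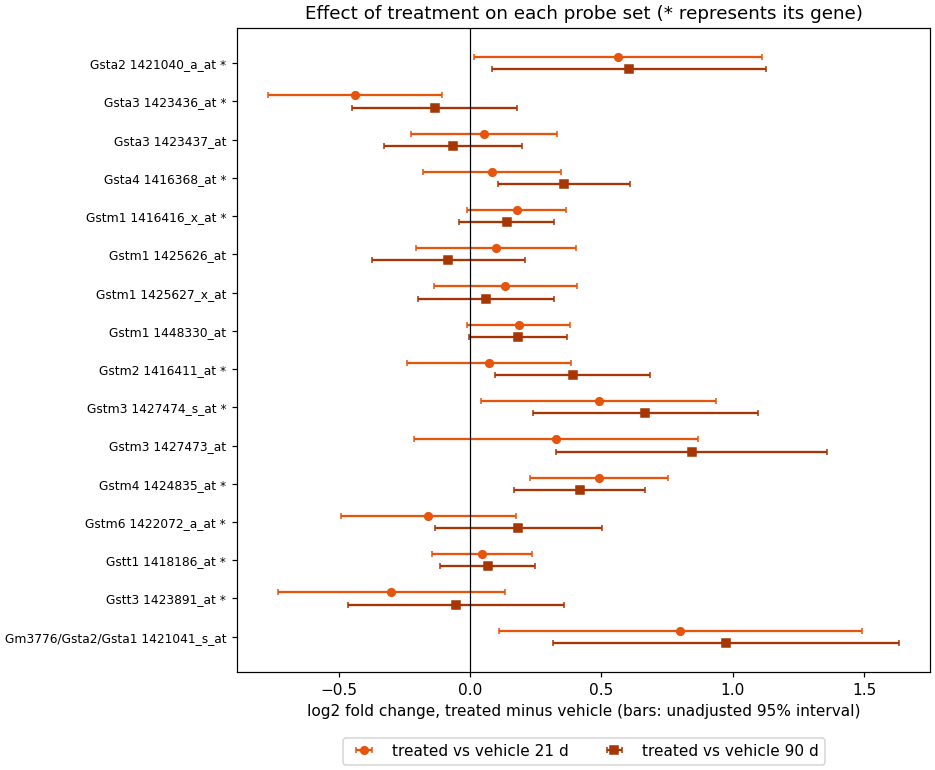
Log2 fold change of treated over vehicle livers (horizontal axis) with unadjusted 95% intervals from limma for each probe set paired with a member, at 21 d (circles) and 90 d (squares); an asterisk marks the probe set that represents its gene. The 2 probe sets of Gsta3 separate at 21 d (-0.44 and 0.05), and the intervals of Gstt1 lie between -0.15 and 0.25.

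Gsta2, an alpha class transferase that is strongly inducible in rodent liver, varied most among the members, with a pooled SD within groups of 0.48 on the log2 scale against 0.15 to 0.39 in the others. Vehicle livers had log2 signals from 11.78 to 12.77 at 21 d and from 11.86 to 12.95 at 90 d. Treated 21 d livers had 13.18, 12.04, 13.05, 12.66 and 12.94, and 3 of these exceeded the vehicle range while replicate 2 was near its lower end. Treated 90 d livers had 13.82, 13.54, 12.68, 13.57, 13.25 and 12.14, with replicates 1, 2, 4 and 5 above the vehicle range and replicates 3 and 6 inside it. The mean was 1.48-fold higher at 21 d (log2 fold change 0.56 ± 0.27 SE, 95% interval 0.02 to 1.11, limma adjusted p = 0.301) and 1.52-fold higher at 90 d (95% interval 0.08 to 1.13, adjusted p = 0.397). The difference at 21 d stood next to a Gapdh gap that was 0.67 larger in the same treated livers. In the fit that held the Gapdh gap the 21 d value was 0.53 (adjusted p = 0.744). On leaving out the 5 arrays over 0.9, so that treated 21 d replicate 2 remains alone, it was -0.17 (adjusted p = 0.948). The probe set shared by Gsta1, Gsta2 and Gm3776 had larger values of the same sign, 0.80 ± 0.33 (SE, adjusted p = 0.236) at 21 d and 0.97 ± 0.32 (SE, adjusted p = 0.226) at 90 d. All 5 treated 21 d livers exceeded all 6 vehicle livers there, from 11.92 to 12.45 against 10.85 to 11.88.

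Gsta4, the alpha class enzyme that conjugates the lipid peroxidation product 4-hydroxynonenal, had overlapping groups at both durations. At 21 d its signals ran from 11.46 to 11.83 in treated and from 11.35 to 11.82 in vehicle livers. At 90 d treated replicates 1 to 6 had 12.35, 12.28, 11.68, 12.14, 12.07 and 11.47, beside a vehicle range of 11.48 to 11.83, so 4 treated livers were higher than all vehicle livers. The log2 fold changes were 0.08 ± 0.13 (SE) at 21 d and 0.36 ± 0.12 (SE, limma adjusted p = 0.248) at 90 d. The difference of the 2 effects was 0.27 ± 0.18 (SE, adjusted p = 0.616) and did not pass. With the Gapdh gap held in the fit, the values were 0.29 at 21 d and 0.37 at 90 d, and their difference was 0.074 ± 0.18 (SE). The 90 d value was 0.46 and passed without treated 90 d replicate 6 (adjusted p = 0.0364). It did not pass in the other 22 fits that left out 1 array (highest adjusted p = 0.473).

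Gsta3, which in mouse conjugates the epoxide of aflatoxin B1, was the member with the lowest value at 21 d. Its representative probe set, 1423436_at, had 12.78, 13.54, 13.37, 13.19 and 13.09 in treated and 13.50 to 13.88 in vehicle livers, so 4 of 5 treated livers lay below the vehicle range. The log2 fold change was -0.44 ± 0.16 (SE, limma adjusted p = 0.17) at 21 d and -0.14 ± 0.15 (SE) at 90 d. The other probe set, 1423437_at, gave 0.05 ± 0.13 (SE) and -0.07 ± 0.13 (SE). The low values of 1423436_at moved with the Gapdh control. On the 5 arrays with a Gapdh gap over 0.9 the signal ran from 12.55 to 13.37, and on the other 18 from 13.30 to 13.88. For 1423437_at the 2 sets of arrays overlapped fully, at 11.43 to 11.93 and 11.05 to 12.09. Holding the Gapdh gap in the fit, the 21 d value of 1423436_at was 0.026 (adjusted p = 0.984). Without the 5 arrays, which leaves 1 treated 21 d array, it was -0.092. In the fit without treated 90 d replicate 6, the 21 d value passed at -0.44 (adjusted p = 0.0452). It did not pass in the other 22 fits that left out 1 array (highest adjusted p = 0.369). At 21 d the Gapdh gap ran from 0.14 to 1.45 in treated and from 0.09 to 0.49 in vehicle livers. Treatment and gap thus can hardly be told apart there, and the part of the gap in the Gsta3 values was not tested.

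**Figure D3:**
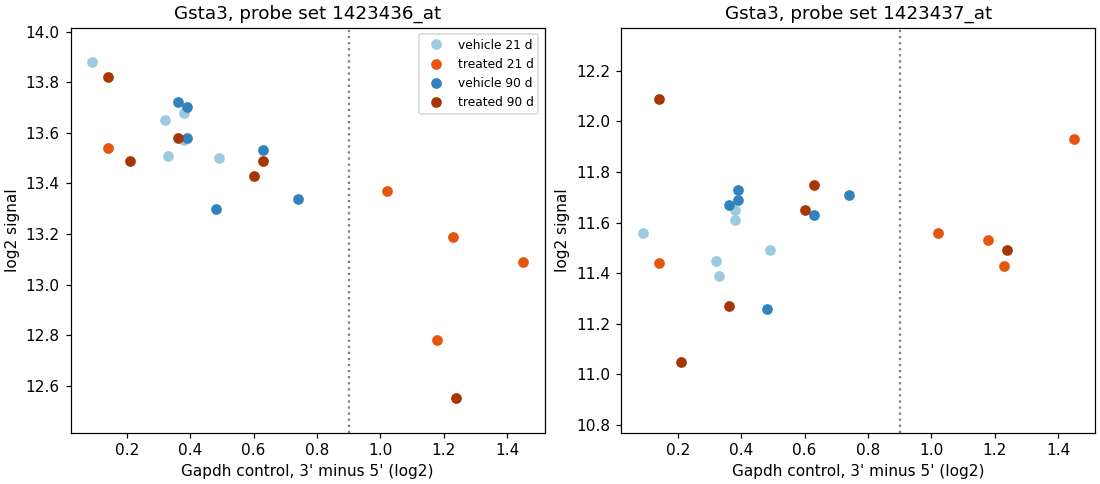
Log2 signal of the 2 Gsta3 probe sets (vertical axes, equal spans) against the Gapdh gap, the 3′ minus 5′ control signal (horizontal axis, log2), 1 point per liver, coloured by group; the dotted line is at 0.9. For 1423436_at the 5 livers right of the line lie between 12.55 and 13.37, mostly under the other 18 (13.30 to 13.88), whereas for 1423437_at they lie within the range of the others.

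The theta class members, whose enzymes act on small halogenated compounds and other electrophiles, gave no difference past the threshold. Gstt1 signals ran from 12.62 to 13.07 in treated and from 12.68 to 12.99 in vehicle livers at 21 d, and from 12.61 to 13.08 and 12.58 to 12.95 at 90 d. Its log2 fold changes were 0.04 ± 0.09 (SE, 95% interval -0.15 to 0.23) and 0.07 ± 0.09 (SE, 95% interval -0.11 to 0.25). At 21 d 1 treated liver lay above the vehicle range, 1 below it and the other 3 inside it, and at 90 d 3 of 6 lay above it. Gstt3 varied more, from 8.91 to 10.14 in vehicle 21 d livers alone, and had -0.30 ± 0.21 (SE, limma adjusted p = 0.533) at 21 d and -0.06 ± 0.20 (SE, adjusted p = 0.954) at 90 d. Its lowest treated 21 d value, 8.71 in replicate 2, stood apart from 9.20 to 9.40 in the other 4.

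The spread among treated 90 d livers had a common shape across members. Replicate 1 exceeded the vehicle range in 9 of 10 members, replicates 2 and 4 in 7 each and replicate 5 in 5, whereas replicate 3 did so in 0 and replicate 6 in 1. Replicates 3, 5 and 6 lay below the vehicle range in 2, 1 and 3 members, where 14.6%, 21.1% and 16.8% of all genes did. Over all 18193 genes, these livers exceeded the vehicle range in 20.7% to 25.1% of genes. The median of the members relative to the vehicle median was 0.63, 0.54, 0.42 and 0.20 in replicates 1, 2, 4 and 5, and -0.06 and -0.16 in replicates 3 and 6. Other measures also differed between these livers. Cdkn1a, which encodes the cell cycle inhibitor p21 and is a target of p53, had 9.01 and 9.15 in replicates 3 and 6 and 10.67 to 11.79 in the other 4, all above the vehicle range of 6.41 to 7.27. Saa1, an acute phase gene of hepatocytes, had 14.56 and 14.10 in replicates 3 and 6, 12.64 in replicate 5 and 10.32 to 10.47 in the others. In vehicle 90 d livers Saa1 ran from 10.05 to 14.06, the latter in replicate 2. That vehicle liver had the lowest signal of its group in every member but Gstm2, and so set the lower end of those vehicle ranges. The mean of 16 acute phase genes was 13.45 and 12.91 in treated replicates 3 and 6, 12.24 in treated replicate 5 and 11.26 to 11.34 in the others. Vehicle 90 d livers ranged from 11.07 to 13.01. The mean of 8 Kupffer cell and macrophage markers was 10.02 in replicate 3, 9.45 in replicate 6, 9.77 in replicate 5 and 8.34 to 8.98 in the others, with 8.25 to 9.75 in vehicle livers. Neutrophil markers, 5 of 6 measured, had a mean of 7.32 and 7.43 in replicates 3 and 6 and 5.84 to 6.84 in the others. Their mean ran from 5.77 to 7.06 in vehicle 90 d livers. By gene, the 90 d log2 fold changes were 0.88 in S100a8 and 0.89 in S100a9. Those of Csf3r, Cxcr2 and Mpo were at most 0.09, and none of the 5 passed. The Gapdh gap was 1.24 in replicate 6 and 0.21 in replicate 3. The part of these measures in the GST values was not tested.

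**Figure D4:**
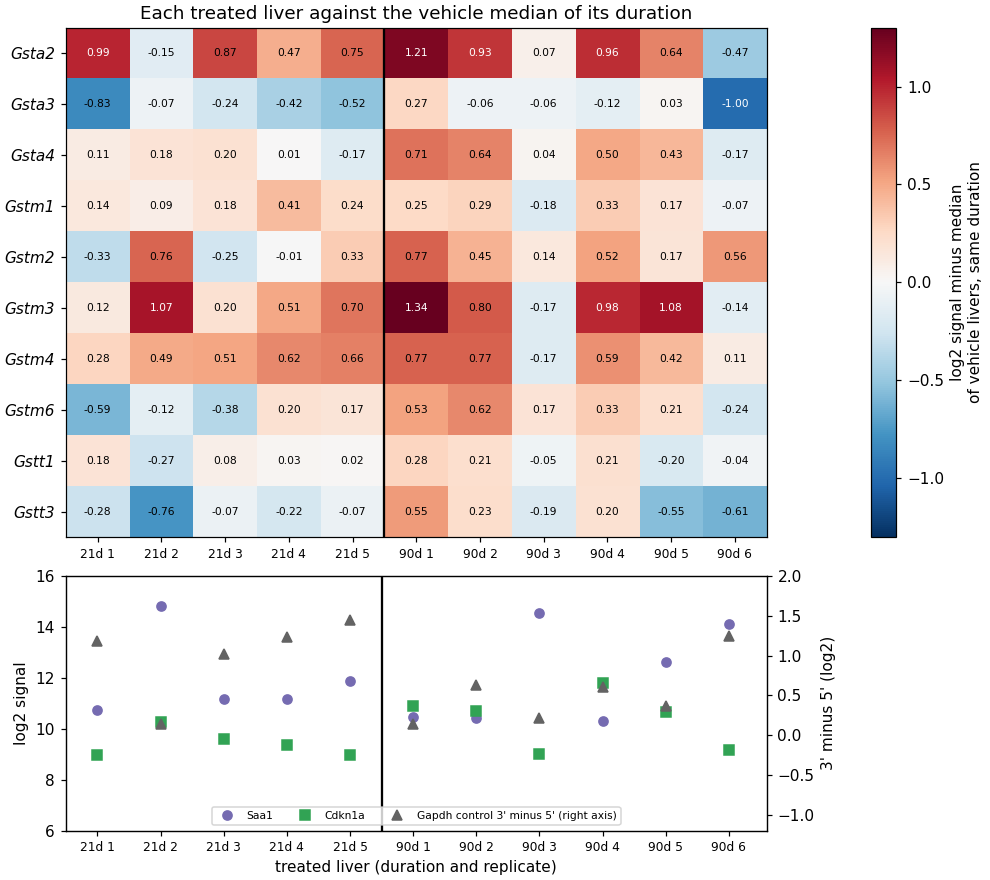
Upper panel, log2 signal of each member minus the median of the vehicle livers of the same duration, for the 5 treated 21 d and 6 treated 90 d livers (columns); lower panel, Saa1 and Cdkn1a log2 signals (left axis) and the Gapdh gap (right axis, log2) of the same livers. Treated 90 d replicates 3 and 6 are near 0 or below in most members, and they have the highest Saa1 (14.56 and 14.10) and the lowest Cdkn1a (9.01 and 9.15) of their group.

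Treated 21 d livers did not share this shape. Each of them exceeded the vehicle range in 3 or 4 of 10 members and lay below it in 1 to 3, where 15.6% to 21.9% of all genes lay above and 18.1% to 25.7% below. Replicate 2, with a Saa1 signal of 14.83, had the highest Gstm2 and Gstm3 of its group (10.23 and 12.79) and the lowest Gsta2, Gstt1 and Gstt3 (12.04, 12.62 and 8.71). Its Gapdh gap was 0.14, against 1.02 to 1.45 in the other 4. Its means of the acute phase, Kupffer cell and macrophage, and neutrophil markers (13.85, 11.06 and 8.19) were the highest of its group. The part of these measures in the GST values was not tested.

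Between durations, 0 of 10 members passed in vehicle livers (0.00666% of all probe sets passed) and 0 of 10 in treated livers (0.0755%). At an unadjusted p under 0.05 there was 1 member in each, Gstm2, lower at 90 d in vehicle livers, and Gsta4, higher at 90 d in treated livers (0.30 ± 0.13 SE, limma adjusted p = 0.308), beside 5.96% of all probe sets in the first (3.28% lower) and 13.4% in the second (7.03% higher). Gstm2 was the 1 member of the 10 whose vehicle groups were apart, where 0.659% of all probe sets were, and 0 members were apart between the treated groups (0.591%). The second Gstm3 probe set, 1427473_at, was also apart between vehicle groups, at 7.78 to 8.15 and 7.42 to 7.77. The effects at 90 d and 21 d did not differ past the threshold in any member or any other probe set (0.0%). Without treated 21 d replicate 2 this comparison gave 53 probe sets, and without the 5 arrays over 0.9 it gave 6, with 0 members in both. In the fit of all arrays there were 0 members at an unadjusted p under 0.05 beside 9.59% of all probe sets, and limma adjusted p-values ran from 0.616 to 0.979. The largest differences between the effects were those of Gstm6 (0.34 ± 0.22 SE) and Gstm2 (0.32 ± 0.21 SE).

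The members resembled each other to different degrees across the 23 livers. Gstm3 and Gstm4 had the highest Pearson r among the 45 pairs, 0.86, followed by Gsta2 and Gsta4 with 0.80, Gstm1 and Gstm4 with 0.76, and Gstt1 and Gstt3 with 0.75. As deviations from group means, the values were 0.77, 0.74, 0.72 and 0.87. The representatives of Gstm1 and Gstm3 may share probes with other mu class genes, and all pairs share arrays and normalisation, so these values describe the livers only. The lowest value was that of Gsta3 and Gstm4, -0.13, with 0.40 as deviations from group means.

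**Figure D5:**
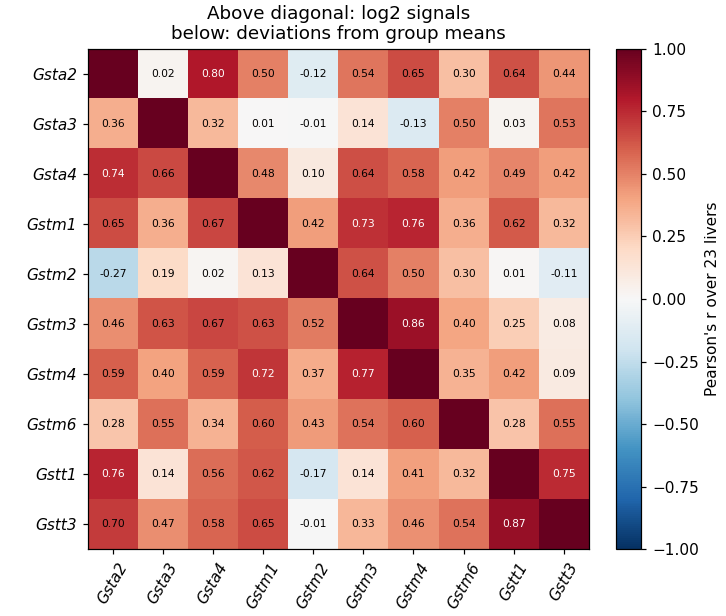
Pearson's r between the representative probe sets of the 10 members over the 23 livers, above the diagonal for log2 signals and below it for deviations from the group means. Gstm3 with Gstm4 (0.86) and Gsta2 with Gsta4 (0.80) are highest above the diagonal, Gstt1 with Gstt3 (0.87) below it.

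The genes outside the 10 members with the most similar pattern were taken as the 2 with the highest Pearson r over the 23 arrays for each member. Papss2, which makes the sulfate donor used by sulfotransferases, was nearest to both Gstm1 and Gstm4 (r = 0.89 for each). Ephx1, the microsomal epoxide hydrolase, was among the 2 nearest to Gstm4 (0.87) and to Gstm3 (0.82). Mgst3, a microsomal glutathione transferase, was among those of Gsta2 (0.80) and Gsta4 (0.90). The remaining genes were Tmem14a for Gsta2 (0.83), Sulf2 for Gsta4 (0.90), Uqcrc1 for Gstm1 (0.87), Fkbp1a for Gstm3 (0.85), 9030619P08Rik and Psmf1 for Gstm2 (0.81 and 0.80), Agxt and Gstm7 for Gstm6 (0.81 and 0.75), Cyp2a12 and Tmem72 for Gstt1 (0.82 and 0.78) and Sult1a1 and Ism1 for Gstt3 (0.83 and 0.80). Those of Gsta3 were Atp5b and Psmd8 (0.93 for both), for the probe set that moved with the Gapdh control. As deviations from group means, r over these pairs ran from 0.67 (Gstm2 with 9030619P08Rik) to 0.94 (Gsta3 with Atp5b). It was 0.71 for Gstm4 and 0.68 for Gstm3 with Ephx1. All these genes were picked by their r over the 23 arrays, so high values there are no test. Ephx1 itself had 0.44 ± 0.13 (SE, limma adjusted p = 0.0797) at 21 d, with all 5 treated livers (13.36 to 13.51) above the vehicle livers (12.63 to 13.24), and 0.45 ± 0.12 (SE, adjusted p = 0.0991) at 90 d.

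Of 15 further measured GST genes, of the mu, theta and other classes and the microsomal family, 0 passed at either duration. At an unadjusted p under 0.05 there were 3 at 21 d, 1 higher and 2 lower, beside 15.8% of all probe sets, 8.2% higher and 7.58% lower. At 90 d there were 3, all higher, beside 10.2%, or 6.06% higher. The median log2 fold change of the 15 genes was -0.06 at 21 d and -0.01 at 90 d. Gstp1 had the lowest adjusted p of the 15 at both durations. Its values were 0.19 ± 0.06 (SE, limma adjusted p = 0.0915) at 21 d and 0.20 ± 0.05 (SE, limma adjusted p = 0.0993) at 90 d. The largest values at 21 d were those of Gstz1, which isomerises maleylacetoacetate in tyrosine breakdown (-0.22 ± 0.08 SE, limma adjusted p = 0.191), and Gstk1, the mitochondrial and peroxisomal kappa class enzyme (-0.22 ± 0.07 SE, adjusted p = 0.135). At 90 d they were those of Gstm5 (0.42 ± 0.13 SE, adjusted p = 0.169), another mu class gene, and Gstt2 (0.37 ± 0.15 SE, adjusted p = 0.363), a theta class gene. At 21 d Gstm5 had 0.19 ± 0.13 (SE, adjusted p = 0.542). Holding the Gapdh gap in the fit, it had 0.57 (adjusted p = 0.0159) at 21 d and 0.44 (adjusted p = 0.0058) at 90 d and passed at both.

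Genes that make and recycle glutathione gave 2 rises among 28 measured at 21 d, 0 falls and 26 that did not pass, beside 0.406% of all probe sets higher. Ggt6, of the gamma-glutamyltransferase family, rose by 0.53 ± 0.12 (SE, limma adjusted p = 0.0365), and Oplah, the 5-oxoprolinase that returns glutamate to the cycle, rose by 0.51 ± 0.12 (SE, adjusted p = 0.0373). The Ggt6 call ended without treated 21 d replicate 1 or 3 or vehicle 21 d replicates 2 to 6 (highest adjusted p = 0.0868), and the Oplah call without treated 21 d replicate 1, 3, 4 or 5 or vehicle 21 d replicates 2 to 6 (highest adjusted p = 0.0863). With the Gapdh gap in the fit, Ggt6 had 0.69 (adjusted p = 0.0375) and passed, whereas Oplah had 0.25 ± 0.12 (SE, adjusted p = 0.591). At an unadjusted p under 0.05 there were 9 of the 28 at 21 d, 4 higher and 5 lower. Of all probe sets 15.8% did so, 8.2% higher and 7.58% lower. Among the 4 higher values, also named after they were seen, was that of Gss, another glutathione synthesis gene (0.29 ± 0.08 SE, adjusted p = 0.0894). At 90 d Gss had 0.26 ± 0.08 (SE, adjusted p = 0.188). Among the 5 lower values, named after they were seen, were those of Gclc (-0.33 ± 0.12 SE, adjusted p = 0.16) and Gclm (-0.20 ± 0.08 SE, adjusted p = 0.213), the subunits of the enzyme that starts glutathione synthesis and known NRF2 targets. At 90 d 0 of the 28 passed. An unadjusted p under 0.05 was reached by 4, all higher, beside 10.2% of all probe sets, or 6.06% higher. The largest values at 90 d were those of Gpx7, a glutathione peroxidase (0.31 ± 0.13 SE, adjusted p = 0.414), and Ggct, which releases oxoproline from gamma-glutamyl amino acids (0.29 ± 0.16 SE, adjusted p = 0.559). Over the list the 90 d median was -0.01 on the log2 scale.

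Of 10 measured genes of conjugate export and mercapturate formation, 1 rose at 90 d and 0 passed at 21 d, beside 0.331% of all probe sets higher at 90 d. An unadjusted p under 0.05 was reached by 2 at each duration, all higher. Of all probe sets, 8.2% at 21 d and 6.06% at 90 d were higher at that limit. Nat8, which acetylates cysteine conjugates in the last step of mercapturate formation, rose from 10.07 ± 0.08 (SD, n = 6) to 10.75 ± 0.35 (SD, n = 6) at 90 d (log2 fold change 0.67 ± 0.12 SE, limma adjusted p = 0.00833). It passed in each of the 23 fits that left out 1 array (highest adjusted p = 0.0317). At 21 d its value was 0.37 ± 0.13 (SE, adjusted p = 0.147). The exporter gene Abcc4 had -0.32 ± 0.18 (SE, adjusted p = 0.425) at 21 d.

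NRF2 targets other than GSTs gave 2 rises among 20 measured genes at 90 d (0.331% of all probe sets rose) and 0 passing at 21 d. Values were positive in 18 of them at 90 d and 15 at 21 d, where 53.5% and 46.0% of all probe sets were positive. At an unadjusted p under 0.05 there were 11 at 90 d, 10 higher and 1 lower, beside 10.2% of all probe sets, or 6.06% higher. At 21 d there were 10, 8 higher and 2 lower, beside 15.8%, or 8.2% higher and 7.58% lower. The median log2 fold changes of these 20 genes were 0.18 at 90 d and 0.15 at 21 d. Gclc and Gclm, NRF2 targets counted with the glutathione genes above, are not among the 20. Their values were negative at both durations, -0.33 and -0.20 at 21 d and -0.10 and -0.04 at 90 d. Nqo1, a quinone reductase, rose from 6.90 ± 0.11 (SD, n = 6) to 7.53 ± 0.40 (SD, n = 6) at 90 d (0.63 ± 0.13 SE, limma adjusted p = 0.0241), and Srxn1, sulfiredoxin, rose by 0.45 ± 0.10 (SE, adjusted p = 0.0363). The Nqo1 call ended without treated 90 d replicate 1, 2, 4 or 5 or vehicle 90 d replicate 1, 3, 5 or 6 (highest adjusted p = 0.0764). The Srxn1 call ended without treated 90 d replicate 1, 2, 4 or 5 or any vehicle 90 d replicate (highest adjusted p = 0.111), and on the mean of its probe sets (adjusted p = 0.424). The largest values at 21 d were those of Aox1, an aldehyde oxidase (0.47 ± 0.12 SE, adjusted p = 0.06), and Hmox1, heme oxygenase (-0.45 ± 0.28 SE, adjusted p = 0.471). Of 15 targets of the nuclear receptors CAR and PXR 0 passed at either duration. An unadjusted p under 0.05 was reached by 3 at 21 d, all lower, beside 15.8% of all probe sets, or 7.58% lower. At 90 d it was reached by 4, 3 lower and 1 higher, beside 10.2%. Values were positive in 3 of the 15 at each duration, beside 46.0% of all probe sets at 21 d and 53.5% at 90 d. Cyp2b10 was lowest at 21 d (-1.04 ± 0.28 SE, adjusted p = 0.0647), followed by Gadd45b (-0.37 ± 0.14 SE, adjusted p = 0.186). At 90 d Cyp2b10 had -0.37 ± 0.26 (SE) and Cyp3a13 0.36 ± 0.14 (SE, adjusted p = 0.355). Of 8 targets of the aryl hydrocarbon receptor 0 passed, and 0 reached an unadjusted p under 0.05 at either duration. Their largest values were those of Cyp1a2 (0.17 ± 0.13 SE) and Cyp1b1 (-0.16 ± 0.15 SE) at 21 d, and of Cyp1b1 (0.24 ± 0.15 SE) and Cyp1a1 (0.22 ± 0.12 SE) at 90 d.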

How the data were processed

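Each of 23 mice gave 1 liver RNA sample and 1 Affymetrix Mouse Genome 430 2.0 array, per the labels' protocols. The deposited values are log2 signals per probe set, from 2.23 to 15.41 with 2 decimals. Per the submitters' processing notes, RMA and Partek were used. Their settings were not given in the sources used here. That the scale is log2 was taken from its range. RMA gives all arrays 1 distribution, which hides any shift shared by every gene. Raw scans were not used here, so background and saturation could not be judged. Precision rests on the number of arrays, and p-values on the spread between animals. Of 45101 probe sets, 64 Affymetrix controls were left out of the fit.

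Group means were fitted with limma 3.58.1 in R 4.3.3 on all 23 arrays (19 residual degrees of freedom), without a replicate block, with Benjamini-Hochberg adjustment over 45037 probe sets. A log2 fold change is the difference of 2 group means, with limma's moderated SE. The fit was also run on simulated data with independent noise, which held no differences between arrays such as the Gapdh gap. That run cannot show how reliable the calls are in these livers. Other settings were the mean of a gene's probe sets, a minimum mean of 6, only the groups compared, trend and robust variance, array weights, median centring, the Gapdh covariate, omission of arrays over 0.9, the replicate block, and omission of each array. The annotation paired 34945 probe sets with 1 gene, 932 with several and 9160 with none. Named were all members, the list genes passing (or the largest values where none passed), and the 2 genes most like each member. The members and lists were chosen with earlier results of these data known. Probe sequences and proteins were not used here.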

Additional observations from a re-analysis of the deposited data

Results flagged for a closer look

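Of 64 groups of values from the 16 probe sets, 5 held a liver that stood apart from its group by Dixon's criterion at the 95% level, where chance gives about 1 in 20. The Gsta3 probe set 1423436_at had 12.55 in treated 90 d replicate 6, against 13.43 to 13.82 in the other 5, and the Gapdh gap of that array was 1.24. The other Gsta3 probe set, 1423437_at, had 11.93 in treated 21 d replicate 5 (others 11.43 to 11.56) and 11.26 in vehicle 90 d replicate 2 (others 11.63 to 11.73). The Gstm3 probe set 1427473_at had 9.52 in treated 21 d replicate 2 (others 7.88 to 8.31), and Gstt3 had 8.71 in the same liver (others 9.20 to 9.40). That liver also had a Saa1 signal of 14.83.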

How the results depend on the processing

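The number of GST members passing was 0 in all 5 comparisons and stayed 0 under every other setting tried between durations and for the difference of the effects. At 21 d it was 1 among probe sets with a mean of at least 6, with only the groups compared and with array weights, and 0 to 2 when 1 array was left out. At 90 d it was 2 without arrays over 0.9 and 0 to 2 when 1 array was left out. The other GST genes gave 1 at 21 d with array weights, with the Gapdh covariate and without arrays over 0.9 (0 to 2 with 1 array left out), and at 90 d 2, 1 and 1 (0 to 1). Glutathione synthesis genes passing at 21 d, 2 in the report, were 1 with only the groups compared, 1 with the Gapdh covariate, 1 without arrays over 0.9, 0 with the replicate block, 3 with array weights, and 0 to 2 with 1 array left out. NRF2 targets passing at 21 d were 3 with a mean of at least 6, 3 with array weights, 1 with median centring and 0 to 3 with 1 array left out. At 90 d they were 1 on the mean of probe sets, 0 with only the groups compared, 3 with a mean of at least 6, 3 with the Gapdh covariate, 4 with array weights, 4 without arrays over 0.9 and 0 to 4. CAR and PXR targets at 21 d gave 1 with a mean of at least 6 and with array weights (0 to 1), and AHR targets and export genes 0 to 1 with 1 array left out.

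Signs turned only in values that did not pass. At 21 d these were Gstm2 with array weights (-0.027; -0.093 to 0.18 with 1 array left out), Gsta3 with the Gapdh covariate (0.026), Gstt1 with it (-0.0135) and without arrays over 0.9 (-0.23), and Gsta2 without arrays over 0.9 (-0.17). At 90 d these were Gsta3 without arrays over 0.9 (0.034; -0.22 to 0.034 with 1 array left out) and Gstt3 with array weights (0.022) and without arrays over 0.9 (0.055; -0.18 to 0.055). The cause was not tested. Without arrays over 0.9, 1 treated 21 d array remains, and its spread is taken from the other groups.

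Over all probe sets 431 passed at 21 d, but 813 of those with a mean of at least 6, 1426 with array weights, 207 with only the groups compared, 191 on the mean of probe sets, 123 with the Gapdh covariate and 91 with the replicate block. At 90 d 226 passed, but 149, 463, 504, 761 and 148 with only the groups compared, array weights, the Gapdh covariate, no arrays over 0.9 and the replicate block. With 1 array left out, the 21 d count was 2265 without treated 21 d replicate 2, 694 and 905 on leaving out replicate 1 or 6 of the treated 90 d group, 146, 186 and 149 without treated 21 d replicates 1, 3 and 4, and 133 to 211 without any 1 of vehicle 21 d replicates 2 to 6. The 90 d count was 376 without treated 21 d replicate 2, 340 and 389 on leaving out replicate 3 or 6 of the treated 90 d group, 119, 134 and 141 without replicates 2, 4 and 5 of that group, and 114 to 147 without vehicle 90 d replicate 1, 3, 4, 5 or 6. Between the treated groups 34 passed, but 1644 on leaving out treated 21 d replicate 2, 488 on leaving out replicate 6 of the treated 90 d group, and 10 to 42 on leaving out any other array. Whether replicate numbers pair the animals was not established here. Arrays of the same number in treated and vehicle groups deviated with r from -0.20 to -0.14 at 21 d and from -0.36 to -0.23 at 90 d. Arrays of different numbers had a mean r of 0.04 at 21 d and 0.06 at 90 d. The cause of this was not tested. With the replicate block 0 members passed at either duration, and Gstm4 had 0.48 at 21 d (adjusted p = 0.109).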
